A study of Rattus norvegicus with 9 samples.

Results

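Expression of 5 heat shock protein genes, Hspa1a, Hspa8, Hspa5, Hsp90ab1 and Hspb1, was measured in the cerebral cortex of male rats aged 6, 12 or 28 months. The genes were chosen by name and all 5 identifiers were present among the 29516 gene identifiers of the count files. The rats were of the BN strain (substrain BN/SsNOlaHSD), untreated and fed ad libitum, and each library held ribodepleted RNA pooled from 2 rats of 1 age, so differences between single animals cannot be seen. There were 9 count files, 3 per age. The second file under 6 months and the third under 12 months hold the same reads for each gene, so they are 1 library, and the labels do not settle which age this library belongs to. It is therefore shown apart as the shared library, and the age comparisons were made with the other 7 libraries, 2 at 6 months, 2 at 12 months and 3 at 28 months.

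Heat shock proteins are chaperones, which bind unfolded or partly folded proteins and help them to fold, refold or be degraded. The HSP70 family works through cycles of ATP hydrolysis with co-chaperones of the DnaJ family, and passes many clients on to HSP90. Hspa1a encodes the stress-inducible cytosolic HSP70, which heat shock factor 1 switches on when unfolded protein accumulates, and Hspa8 encodes its constitutive relative, abundant in neurons, where it also uncoats clathrin vesicles. Hspa5 encodes BiP, the HSP70 of the endoplasmic reticulum (ER) and a target of the unfolded protein response. Hsp90ab1 encodes the constitutive cytosolic HSP90 beta, which matures kinases and steroid hormone receptors, and Hspb1 encodes a small heat shock protein that holds unfolded proteins without ATP and is found in astrocytes and blood vessels of the brain. Some of these genes respond to acute stress and others are expressed all the time, and the ages were compared for each of them.

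The gene reads per library ranged from 6513376 to 9196951, of which 44.0 to 52.4% fell on a single identifier, ENSRNOG00000043866. Normalised counts are CPM (gene reads scaled to a common library total) after TMM scaling. Gria2, a glutamate receptor subunit and marker of neurons, was detected in every library, with 767 to 966 normalised counts. Whether a lower value in this bulk tissue reflects fewer cells of a type or less RNA per cell cannot be told apart. Counts of Hspa1a may include reads of its close copy Hspa1b, which RefSeq lists beside it, and RefSeq names 33 pseudogenes of Hspa8 and 23 of Hsp90ab1. The files record 0 alignments as not unique and the handling of reads with several matches was not given in the sources used here, so the levels of these 3 genes are uncertain.

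The part of the Hspa1a transcript used for its qPCR assay in the study is shown first, since Hspa1a is the member with the widest range between libraries. Whether it also occurs in Hspa1b was not tested. It is an amplicon of 63 bases, positions 1750 to 1812 of the transcript sequence used for the design, with the forward primer and the site of the reverse primer in capitals.
Hspa1a amplicon: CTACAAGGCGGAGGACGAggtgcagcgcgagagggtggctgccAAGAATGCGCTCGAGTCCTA
Promoter stretches are given for the members in which a searched motif was found, because heat shock factor 1 and the unfolded protein response act through such motifs. They come from RefSeq windows of 250 bases before to 50 after the gene start (GRCr8), matched by symbol for 5 of the 5 genes. The motifs, searched on both strands, were the heat shock element of 3 units (GAANNTTCNNGAA or its complement TTCNNGAANNTTC), its forms of 2 units (GAANNTTC and TTCNNGAA, which lie within the longer one), and the ER stress response element (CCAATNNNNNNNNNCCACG). Matches are in capitals.
Hspa8, chr8:50080286-50080486, plus strand: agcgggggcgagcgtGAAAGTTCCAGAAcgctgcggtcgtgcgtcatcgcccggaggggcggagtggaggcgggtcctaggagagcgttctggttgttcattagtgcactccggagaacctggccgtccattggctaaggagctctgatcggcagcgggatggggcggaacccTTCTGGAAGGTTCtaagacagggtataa
Hspa5, chr3:38452958-38453006, plus strand: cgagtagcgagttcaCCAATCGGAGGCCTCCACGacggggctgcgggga
Hspb1, chr12:26432388-26432445, minus strand: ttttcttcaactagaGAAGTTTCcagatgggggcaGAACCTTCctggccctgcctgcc
The Hspa8 stretch held 2 heat shock elements of 3 units, 213 to 201 and 55 to 43 bases before the start, a motif found in 0.736% of 27457 rat promoter windows. In the Hspa5 window an ER stress response element lay 43 to 25 bases before the start, and 0.0765% of windows held this motif. The Hspb1 window held 2 matches to GAANNTTC, which 8.34% of windows held at least once, while TTCNNGAA occurred in 8.49%. None of these motifs was found in the windows of Hspa1a and Hsp90ab1, which says only that these letters are absent from those 300 bases. A match is a description of the letters and not evidence of binding in these samples.

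Hspa1a (ENSRNOG00000033526), the inducible HSP70, was the member with the widest range among the 4 with enough reads to rank. It had 4.60 and 16.8 normalised counts at 6 months (samples 1 and 3, from 42 and 146 reads), 4.01 and 2.49 at 12 months (28 and 18 reads) and 2.62, 1.39 and 1.67 at 28 months (21, 10 and 11 reads). The shared library had 3.09 (22 reads). Both 6-month libraries were above every other library, the 12-month and 28-month libraries overlapped, and the mean was 5.67 times higher at 6 than at 28 months and 3.30 times higher at 6 than at 12 months. Much of the 6-month mean came from sample 3, which was 3.66 times sample 1.

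**Figure D1:**
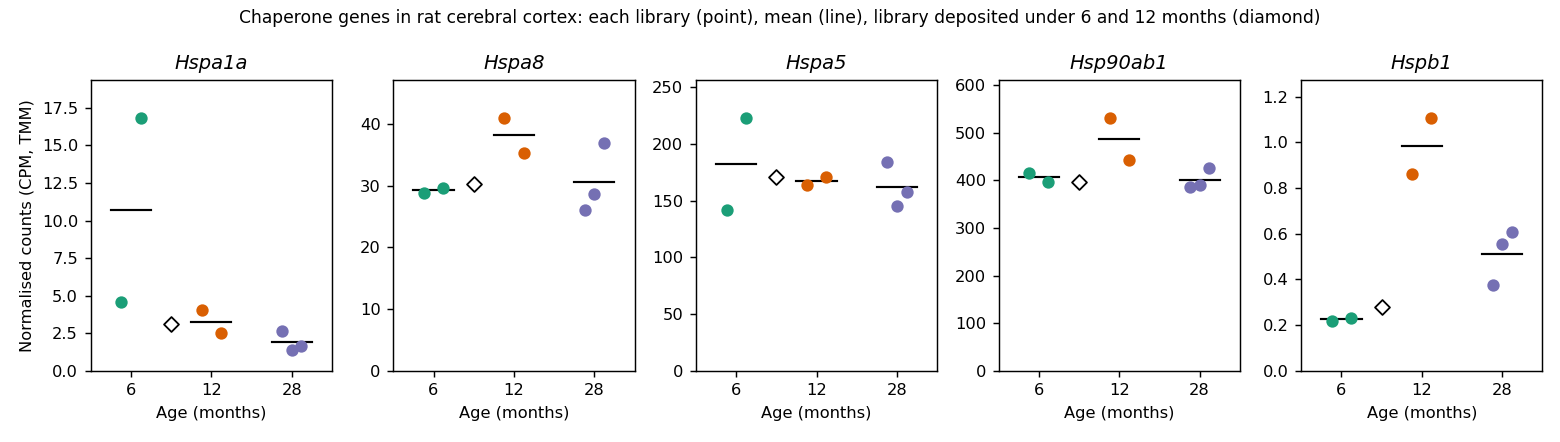
Normalised counts (CPM after TMM, vertical axes from 0) of the 5 genes against age in months, with a point per library, a line at the mean and a diamond for the library deposited under 6 and 12 months. Hspa1a was highest in the 6-month libraries, at 4.60 and 16.8, and Hspa8, Hsp90ab1 and Hspb1 had their highest library at 12 months.

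Each pair of ages was tested over all genes with edgeR's quasi-likelihood test, and genes with a false discovery rate (FDR, Benjamini-Hochberg) under 0.05 were called differentially expressed (DE). The log2 fold change (log2FC) is given with its standard error (SE), and a value below 0 means lower expression at the older age. For Hspa1a the log2FC was -2.47 from 6 to 28 months (SE 0.49, 95% interval -3.55 to -1.39, FDR 0.124), a larger change than that of 99.1% of the 16042 genes tested, but it was not DE. It was -1.72 from 6 to 12 months (SE 0.56, interval -2.98 to -0.45, FDR 0.237) and -0.75 from 12 to 28 months (SE 0.41, interval -1.64 to 0.13, FDR 0.714). By its own tests, the study called Hspa1a lower at 28 than at 6 months. It also called the transcript of Hspa1a lower at 12 and at 28 months than at 6 months. The study reported that qPCR showed the same profile as its sequencing for this gene. These calls came from the same samples, so the values of Hspa1a here are not independent evidence.

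Whether Hspa1a was called turned on the test, on the filter for low reads and on single 6-month and 12-month libraries. For 6 against 28 months, an FDR of 7.11e-06 came from the exact test of edgeR and one of 0.00317 from DESeq2, and over 15 alternatives the FDR ran from 7.11e-06 to 0.9999. The quasi-likelihood test of edgeR gave an FDR of 1.48e-05 when genes with at least 1 read in any library were tested. By the same test, leaving out 6 months sample 3 gave a log2FC of -1.26 (FDR 0.655) and leaving out 6 months sample 1 gave -3.12 (FDR 0.0106). With the shared library placed at 6 months the log2FC was -2.10 (FDR 0.9999 by edgeR). Between 6 and 12 months the log2FC was -0.51 without 6 months sample 3 (FDR 0.620). Hspa1a was DE in that comparison by the exact test (FDR 0.0203 over all genes, edgeR), and by the quasi-likelihood test without 6 months sample 1 (FDR 3.95e-12) or without 12 months sample 1 (FDR 0.00182). In these last fits, 1 age had a lone library, which was taken to vary like the others. Over all 15 alternatives of each comparison the log2FC of Hspa1a stayed below 0. Both 6-month libraries were above every other library, so leaving 1 library out could not turn the sign in the comparisons with 6 months. For the comparisons with 28 months, the files as labelled and the shared library at a single age are the same fit, listed under both names.

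**Figure D2:**
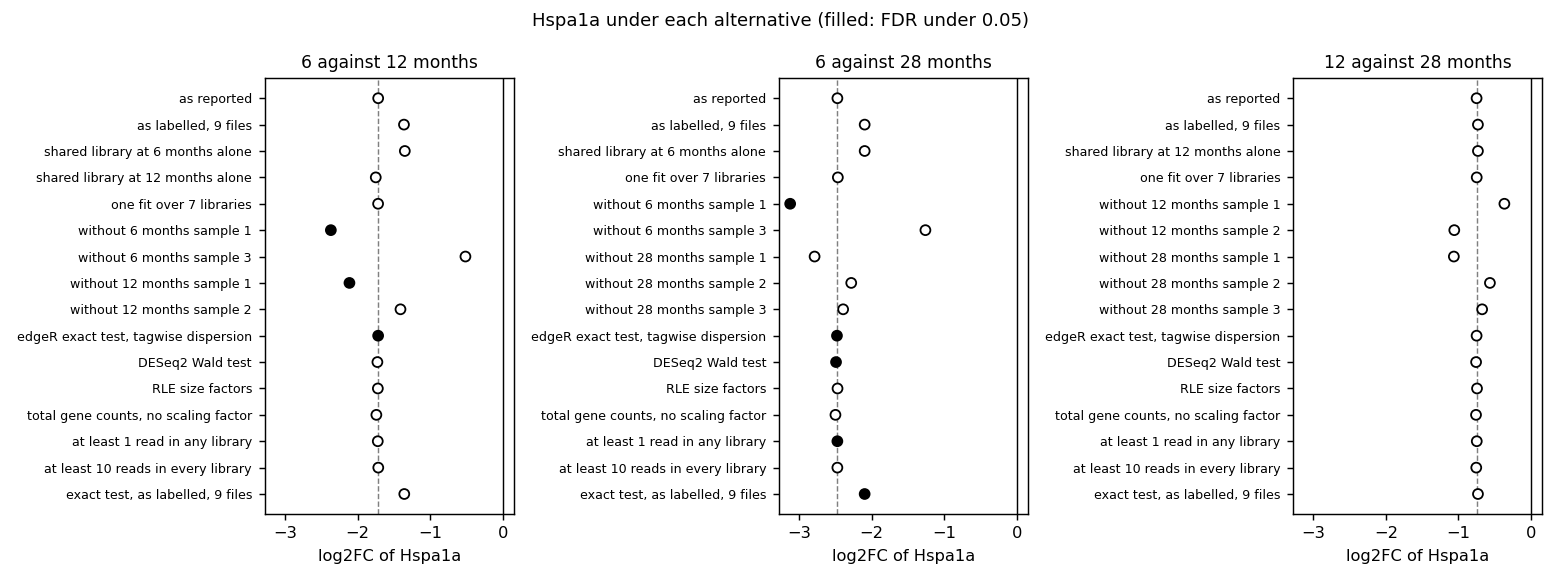
Log2FC of Hspa1a (horizontal axes) in each pair of ages under each alternative named on the vertical axes, with filled points where the FDR was under 0.05 and a dashed line at the value reported above, from a separate fit for each pair of ages without the shared library. Every point lies below 0, and the largest shift toward 0 was without 6 months sample 3 in the comparisons of 6 with 12 and 28 months, at -0.51 and -1.26.

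Reads of the inducible gene set against those of the constitutive one in the same library need no scaling between libraries. Per 100 reads of Hspa8 there were 16.0 and 56.8 reads of Hspa1a at 6 months (exact 95% intervals 11.2 to 22.2 and 46.0 to 69.9), 9.79 and 7.06 at 12 months (6.39 to 14.5 and 4.12 to 11.4) and 10.05, 4.85 and 4.53 at 28 months (6.09 to 15.8, 2.29 to 9.11 and 2.23 to 8.24). The shared library had 10.2 (6.28 to 15.9). On this measure the interval of 6 months sample 3 lay above that of every other library. The interval of 6 months sample 1 overlapped those of both 12-month libraries and of 28 months sample 1. These intervals cover counting error only, and they are too narrow even for that, since reads of amplified libraries are not independent molecules. Against Hsp90ab1 the same library was again highest, with 4.24 reads of Hspa1a per 100 against 0.356 to 1.11 in the other 7.

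**Figure D3:**
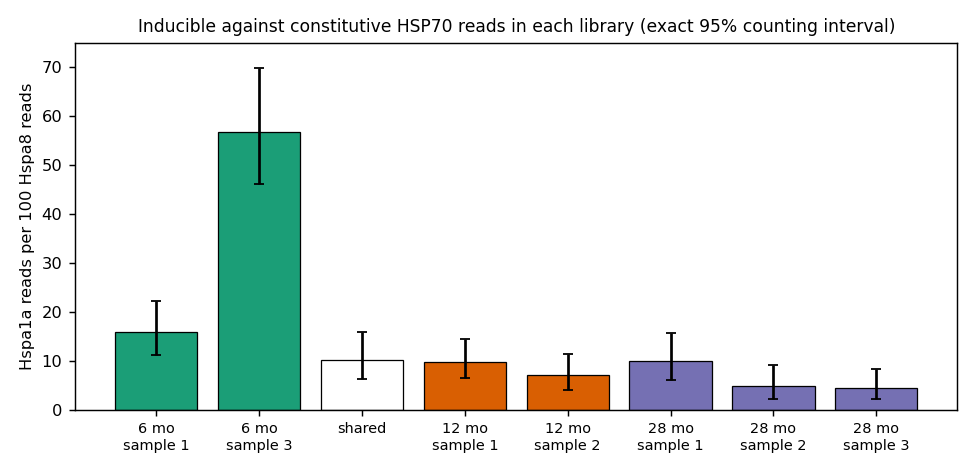
Hspa1a reads per 100 Hspa8 reads (vertical axis from 0) in each of the 8 independent libraries, with bars for the ratio and lines for the exact 95% counting interval. The bar of 6 months sample 3 reaches 56.8 and the other bars lie between 4.53 and 16.0.

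Genes whose expression follows neuronal activity and handling were set beside Hspa1a. Arc, an immediate early gene of synapses, had 59.2 and 59.6 normalised counts at 6 months. Arc had 62.1 and 36.0 at 12 months and 43.5, 28.5 and 24.8 at 28 months, and the shared library had 16.0. Egr3, an activity-induced transcription factor, had 10.1 and 12.6 at 6 months, 6.31 and 4.43 at 12 months, and 8.05 to 9.73 at 28 months. Klf10, a transcription factor induced by growth factors, lay between 7.90 and 14.2 in all libraries. Over these 3 genes the summed level was 79.8 to 82.7 at 6 months, 50.3 to 80.9 at 12 months and 40.7 to 61.3 at 28 months. In the shared library the sum was 29.2. None of the 3 genes was DE in any comparison (FDR from 0.108 to 0.999 by edgeR's quasi-likelihood test). Their part in the values of Hspa1a was not tested.

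Hspa8 (ENSRNOG00000034066), the constitutive HSP70, varied little. It had 28.8 and 29.7 normalised counts at 6 months, 41.0 and 35.3 at 12 months, and 26.1, 28.6 and 36.9 at 28 months, with 30.2 in the shared library. The 12-month libraries were above both 6-month libraries, and 28 months sample 3 lay between the 12-month values. The log2FC was 0.38 from 6 to 12 months (SE 0.16, 95% interval 0.02 to 0.74, FDR 0.348 by edgeR's quasi-likelihood test), 0.06 from 6 to 28 months (interval -0.36 to 0.48, FDR 0.978) and -0.31 from 12 to 28 months (interval -0.72 to 0.10, FDR 0.740). The last 2 intervals include 0, so a change in either direction remains possible within them.

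Hspa5 (ENSRNOG00000018294), the ER chaperone BiP, showed no order by age. At 6 months it had both the lowest and the highest value of all libraries, 142 in sample 1 and 223 in sample 3. The 12-month libraries had 164 and 171, the 28-month libraries 184, 145 and 157, and the shared library 171. The log2FC was -0.13 from 6 to 12 months (interval -0.59 to 0.34, FDR 0.831), -0.17 from 6 to 28 months (interval -0.63 to 0.28, FDR 0.928) and -0.04 from 12 to 28 months (interval -0.39 to 0.32, FDR 0.974), all by edgeR's quasi-likelihood test. Without 6 months sample 3, the library in which Hspa1a was also highest, the first 2 values turned to 0.22 and 0.19.

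Hsp90ab1 (ENSRNOG00000019834), the constitutive HSP90, was the steadiest member, with 2804 to 3784 reads per library. It had 415 and 397 normalised counts at 6 months, 532 and 443 at 12 months and 387, 390 and 426 at 28 months, with 396 in the shared library. Both 12-month libraries were above all others, although 443 and 426 are close. The log2FC was 0.26 from 6 to 12 months (SE 0.16, interval -0.10 to 0.61, FDR 0.528), -0.02 from 6 to 28 months (interval -0.36 to 0.33, FDR 0.993) and -0.27 from 12 to 28 months (SE 0.16, interval -0.62 to 0.08, FDR 0.738), by the same test. Between 6 and 28 months the interval reached at most 0.36 from 0 on the log2 scale in either direction.

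Hspb1 (ENSRNOG00000023546), the small heat shock protein, was close to the limit of detection. The 6-month libraries and the shared library had 2 reads each, against 6 and 8 at 12 months, and 3, 4 and 4 at 28 months, or 0.219 to 0.231, 0.860 to 1.11 and 0.374 to 0.608 normalised counts. The ages did not overlap, but each library rests on at most 8 reads. The 12-month reads per unit of depth were 4.39 times those at 6 months (14 against 4 reads, 95% counting interval 1.38 to 18.3). The 28-month reads were 0.512 times those at 12 months (11 against 14, interval 0.210 to 1.21). Counting intervals treat reads as independent molecules and leave out differences between libraries, so they are too narrow. The fitted log2FC was 2.05 from 6 to 12 months (SE 0.86, FDR 0.338) and -0.92 from 12 to 28 months (SE 0.68, FDR 0.779) by edgeR's quasi-likelihood test. Hspb1 entered these tests only through its 12-month libraries, since a gene needed 5 reads in at least 1 library. It was therefore not tested between 6 and 28 months, where 4 and 11 reads gave a ratio of 2.24 (interval 0.665 to 9.66).

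Several markers of other cell types were also highest at 12 months, the age of the highest Hspb1, Hspa8 and Hsp90ab1 libraries, and 4 of the 9 measured rose from 6 to 12 months by edgeR's quasi-likelihood test (Gfap, Cd74, Alb and Cdh1, FDR from 0.000601 to 0.0329). From 12 to 28 months 3 of the 9 fell by the same test (Gfap, Aif1 and Cd74, FDR from 0.0148 to 0.0444). The study had listed all 9, as genes or as transcripts, among those changed with age in these same samples. Their calls here are therefore not independent evidence. For all genes tested, the share called was 1.2% in the first of these comparisons and 0.12% in the second. The 4 rises were all lost with the shared library at 6 months or with the 9 files as labelled. DESeq2 kept Gfap, Cd74 and Alb. The fit over 7 libraries and the shared library at 12 months each kept Cd74, Alb and Cdh1. The filter of 1 read kept Cd74 and Alb, and that of 10 reads kept Gfap and Cd74. The exact test as labelled kept Cd74 alone. The 3 falls were all lost without 28 months sample 3 or with no scaling factor. Aif1 was lost with the shared library at 12 months. Fits that left a lone library at 1 age are not counted here. Gfap, the astrocyte filament protein and the only astrocyte marker with an identifier at hand, had 72.9 to 89.8 normalised counts at 6 months, 146 to 156 at 12 months, 52.9 to 77.4 at 28 months and 152 in the shared library. The summed level of 3 microglial markers (Aif1, Cd74 and Fcgr3a) was 10.9 to 12.8, 41.9 to 46.4, 10.5 to 16.3 and 30.5 in the same order. Tf, transferrin, made by oligodendrocytes, had 129 to 161, 208 to 211, 85.7 to 128 and 198. For blood (haemoglobin beta-2 and Alb) the sum was 23.4 to 31.9, 40.7 to 54.0, 19.2 to 29.9 and 72.3 and for the epithelial markers Lrp2 and Cdh1 it was 0.986 to 2.42, 4.87 to 6.09, 2.74 to 3.34 and 11.1. The shared library was above the 12-month range for the blood and epithelial sums and within it for Gfap, and it was below that range for the microglial sum, Tf, Hspb1, Hspa8 and Hsp90ab1. The part of these markers in the values of the heat shock genes was not tested.

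Over the 5 genes, the quasi-likelihood test of edgeR called 0 of 5 between 6 and 12 months, 0 of 4 between 6 and 28 months and 0 of 5 between 12 and 28 months, where 1.2%, 0.206% and 0.12% of all genes tested were called. At an unadjusted p under 0.05 there were 3 (Hspa1a, Hspa8 and Hspb1), 1 (Hspa1a) and 0, against 13.6%, 6.45% and 7.68% of all genes. Hspb1 entered only through its 12-month libraries, where it was highest, so the filter favoured a difference there. Without Hspb1 the first count was 2 of 4. The exact test called Hspa1a between 6 and 12 months and between 6 and 28 months, and DESeq2 called it between 6 and 28 months. Over the 4 genes other than Hspb1, the median log2FC was 0.06, -0.09 and -0.29, against -0.01, -0.01 and 0.01 for all genes tested.

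By the separation of libraries, 4 of the 5 genes did not overlap between 6 and 12 months, Hspa1a being lower at 12 months and Hspa8, Hsp90ab1 and Hspb1 higher, and 45.5% of all genes tested did not overlap there either (22.4% lower and 23.1% higher). Between 6 and 28 months 1 of 4 (Hspa1a, lower at 28 months) did not overlap, against 21.9% of all genes (11.0% lower and 10.8% higher), and between 12 and 28 months 2 of 5 (Hsp90ab1 and Hspb1, both lower at 28 months) did not, against 24.6% (13.2% lower and 11.4% higher). Without Hspb1 these counts were 3 of 4, 1 of 4 and 1 of 4. With so few libraries such separation is common. Leaving Hspb1 out, the log2FC was above 0 for 2 of 4 genes between 6 and 12 months. It was above 0 for 1 of 4 between 6 and 28 months and for 0 of 4 between 12 and 28 months. Of all genes tested, 48.9%, 48.9% and 50.8% had a log2FC above 0 in these comparisons. None of the values of these 4 genes passed the test. Comparisons that share an age share its libraries.

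The members differed in how much they varied among the 8 independent libraries. The standard deviation of log2 normalised counts was 1.04 for Hspa1a, more than that of 98.8% of the 10968 genes averaging 20 reads or more, and the highest library was 12.1 times the lowest. Without 6 months sample 3 these values were 0.57, 93.6% and 3.31 times. The standard deviation was 0.22 for Hspa8, 0.21 for Hspa5 and 0.15 for Hsp90ab1, at the 35.5, 30.5 and 12.2 percentiles, with a median over genes of 0.26. The highest library was 1.57, 1.57 and 1.37 times the lowest for these 3 genes. These ranks were not matched for read number, and the mean reads per library were 37.25 for Hspa1a, 241.8 for Hspa8, 1298 for Hspa5 and 3208 for Hsp90ab1. Hspb1 had too few reads to be ranked.

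Among the genes with a name at hand, those with the pattern closest to a member were found by the root mean square difference of centred log2 values over the 8 libraries. The names came mainly from the study's lists of genes changed with age in these same samples, so the nearest genes were drawn from a selected pool. For Hspa1a they were a copy of the spliceosomal RNA U2 (ENSRNOG00000041859, difference 0.60) and the small nucleolar RNA SNORA48 (0.71), with 5 and 30 unnamed or named genes closer among 10967. The U2 copy had 5.70 and 10.3 normalised counts at 6 months and 1.72 to 5.11 in the other libraries. For Hspa8 they were D3ZQL1_RAT (0.15) and Dync1i1, a dynein chain (0.16), for Hspa5 Dync1i2, another dynein chain (0.13), and Tcf12, a transcription factor (0.14), and for Hsp90ab1 Myo5a, a myosin motor (0.12), and Gucy1a2, a guanylate cyclase subunit (0.13). For these 3 genes between 113 and 240 other genes were closer. For Hspb1 they were Pmm1, phosphomannomutase (0.25), and D3ZQL1_RAT (0.33), where the few reads of Hspb1 limit the comparison. A list of 50 further chaperone and stress response genes, such as Hsp90aa1, Dnajb1 and Hsf1, was not analysed here, since 0 of the 50 symbols could be paired with an identifier.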

How the data were processed

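Total RNA of rat cerebral cortex was ribodepleted and sequenced on the SOLiD V4 system. The authors mapped the reads with Bowtie to the rat reference genome of Ensembl (rn4 per the labels), sorted them with SAMtools, counted reads per gene with HTSeq and deposited raw counts, without normalization. Program versions and the strand setting were not given in the sources used here, so reads of overlapping genes may be split or lost. The lines of each file that name no gene were left out, of which reads on no feature were 47.5 to 60.0% of mapped reads.

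Libraries were grouped by the age in their labels. The 2 identical files, whose age cannot be settled, were left out of the age comparisons and put back in alternatives. Genes reaching 5 reads in 1 or more of the libraries compared were tested with the quasi-likelihood test of edgeR 4.0.16 (R 4.3.3) after TMM normalization, with a separate fit for each 2 ages, with Benjamini-Hochberg adjustment over all genes tested. Displayed counts were scaled by TMM over the 9 files, and log2 values for spread and likeness used a prior count of 2. The 95% intervals of log2FC used the fit's moderated degrees of freedom. Counting intervals were exact (scipy 1.17.1, Python 3.11.15).

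The alternatives were other placements of the shared library, 1 fit over 7 libraries, each library left out in turn, the exact test of edgeR with tagwise dispersion (grid length 500, prior.n 7, proportion 0.5), DESeq2 1.42.0 (Wald test), RLE scaling, no scaling factor, and other filters (1 read in any library, 10 reads in every library). The exact test with the 9 files as labelled was added after the data had been seen. In the main design, the quasi-likelihood test, the exact test and DESeq2 were tried on simulated data. The other scalings, filters, placements of the shared library and fits with a library left out were not. The members and lists were chosen with earlier results of these data known. Of the identifiers, 168 have a name in the paper's supplementary tables, among them 1 of the 5 members (Hspa1a), and the other 4 were paired with their symbols by the rule that chose them, since the RefSeq gene table lists no Ensembl identifiers. Other genes named are the 2 nearest per member with a mean of at least 20 reads, and the fixed markers of cell types and activity, of which the summed neuronal level is not reported here. Supplementary columns of the authors' own comparisons (fold changes and p-values) were not used.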

Additional observations from a re-analysis of the deposited data

How the results depend on the processing

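With 2 or 3 libraries per age and as few as 2 reads of Hspb1, small changes were not detectable at this depth. No paired analysis was possible because the labels number the samples in a single run across the ages, and the sample numbers used here within an age only follow that order. Of 208 values of the 5 genes under the alternatives, 193 kept their direction and their side of the FDR threshold, 8 passed it, all of Hspa1a, and 7 changed sign, of Hspa5, Hsp90ab1 and Hspa8. In the comparisons with 28 months, the files as labelled and the shared library at a single age are the same fit. Its values are counted under both names in the 208 and the 193.

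For Hspa1a between 6 and 12 months, the log2FC was -1.72 by the exact test of edgeR (FDR 0.0203) and ran from -2.37 to -0.51 with each library left out. Between 6 and 28 months it was -2.48 by the exact test (FDR 7.11e-06), -2.49 by DESeq2 (FDR 0.00317), -2.47 with genes of at least 1 read in any library (FDR 1.48e-05 by the quasi-likelihood test), -2.10 by the exact test with the 9 files as labelled (FDR 0.00439), and ran from -3.12 to -1.26 with each library left out. The sign changes came with a library left out, where the log2FC ran from -0.41 to 0.22 for Hspa5 between 6 and 12 months, from -0.46 to 0.19 between 6 and 28 months and from -0.13 to 0.035 between 12 and 28 months, from -0.063 to 0.020 for Hsp90ab1 and from -0.097 to 0.17 for Hspa8 between 6 and 28 months. Hspb1 was tested between 6 and 28 months only with the filter of 1 read (log2FC 1.12, FDR 0.897 by edgeR) and in the fit over 7 libraries (1.12, FDR 0.816), and with at least 10 reads in every library it was in no comparison. DESeq2 gave no adjusted p for Hspa1a between 12 and 28 months, nor for Hspb1 in either comparison, and these 3 values were counted by their direction alone.

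The number of DE genes over the whole table, 191, 33 and 19 in the 3 comparisons (6 and 12, 6 and 28, 12 and 28 months), moved more. Between 6 and 12 months it was 0 by the quasi-likelihood test with the 9 files as labelled, where both ages held the shared library (485 at an unadjusted p under 0.05), 19 with the shared library at 6 months and 109 with it at 12 months, 450 by the exact test, 82 by the exact test as labelled, 112 with genes of at least 1 read, and 360 to 883 with each library left out. Between 6 and 28 months it was 18 with the shared library, as labelled or at 6 months alone, 131 by the exact test, 70 by DESeq2, 199 with genes of at least 1 read, and 0 to 137 with each library left out, being 0 by the same test without 28 months sample 3 (549 at an unadjusted p under 0.05). Between 12 and 28 months it was 9 with the shared library, as labelled or at 12 months alone, 117 by the exact test, 82 by DESeq2, 50 by the exact test as labelled, 7 without a scaling factor, 139 with genes of at least 1 read, and 0 to 142 with each library left out, being 0 by that test without 12 months sample 2 or 28 months sample 3 (918 and 870 at an unadjusted p under 0.05). The cause of the other shifts was not tested.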
